A study of Rattus norvegicus with 30 samples.

Results

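Rat hepatocytes kept for 48 h under 100 mM diisononyl phthalate (DINP, a plasticiser) were compared with hepatocytes kept for 24 h under the same dose. The comparison holds 10 of the 30 arrays of the study, chosen by their labels alone: 5 arrays of cells at 48 h and 5 of cells at 24 h. The study exposed primary hepatocytes to DINP at 25 or 100 mM (the unit as the labels write it) or to vehicle, and read their RNA on 1 Affymetrix array per culture. All cells were frozen, commercially supplied hepatocytes of male Sprague Dawley rats. They were thawed onto collagen-coated wells, covered with Matrigel and dosed on day 3 of culture, with 1% DMSO as the vehicle and in the dosing solutions. The groups used below are DINP 100 mM for 48 h, DINP 100 mM for 24 h, DINP 25 mM for 48 h and for 24 h, and vehicle for 48 h and for 24 h, with 5 arrays each. The labels describe the 5 wells of a group as separate cultures and name no donor; p-values therefore cover only the variation from well to well. Cells at 48 h were older in culture by the same hours that they were longer under DINP, and these cannot be told apart within the 100 mM groups. The vehicle groups passed through the same hours without DINP.

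Hepatocytes make most plasma proteins, the acute phase and complement proteins among them, and carry the enzymes of lipid, bile acid and drug metabolism. Monoester metabolites of DINP are known in rodents to activate PPARα, the nuclear receptor that drives peroxisomal and mitochondrial fatty acid oxidation. Isolated hepatocytes in culture are known to lose part of their drug-metabolising gene expression over days.

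Signals below are the deposited linear values of the arrays, scaled per array by the authors. Differences are given as log2(signal + 16) at 48 h minus 24 h with their standard error (SE), from limma over all 6 groups. A gene is called where its Benjamini-Hochberg adjusted p over all tested probe sets is under 0.05. Of 31042 probe sets that are not controls, 18625 were bright enough to test, and 10604 genes were read by their brightest tested probe set. The median log2 signal of an array averaged 8.57 ± 0.057 at 48 h and 8.61 ± 0.093 at 24 h (SD, n = 5 each, exact permutation test, 2-sided, p = 0.556). Between 0.972% and 1.79% of probe sets stood apart from the rest of the group on any 1 of the 10 arrays. The added poly-A spikes were higher by 0.49 (log2) at 48 h and lay between 11.7 and 12.2 there, against 11.3 to 11.6 at 24 h. A 2-sided exact permutation test gave p = 0.00794 for the spikes, the lowest value possible with 5 against 5 arrays, and 0.0556 after adjustment over 7 control measures. The 5S rRNA controls were lower at 48 h (log2 difference -0.41, exact permutation p = 0.0238, adjusted 0.0741), and the hybridisation spikes were higher by 0.16 (p = 0.0317, adjusted 0.0741). The 3′ to 5′ ratios of beta-actin, GAPDH and hexokinase gave exact permutation p-values from 0.317 to 0.77.

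The cells carried hepatocyte markers in both groups: albumin (Alb) averaged 114914 signal units at 48 h and 103415 at 24 h. The summed signal of 9 hepatocyte markers was 585597 to 675620 at 48 h and 574871 to 618429 at 24 h. Among these 9 markers 0 rose, and Hnf4a and Cyp2c11 fell. The fall of Hnf4a was not called with the median over probe sets. The summed signal of 13 Kupffer cell and macrophage markers was 35316 to 36990 at 48 h and 30135 to 32491 at 24 h, so the groups did not overlap. In vehicle it was 29716 to 32492 at 48 h and 29849 to 31082 at 24 h. Most of that shift was Cd14, which averaged 22200.3 units at 48 h and 17946 at 24 h. Of the other tested markers, Cd68, Csf1r, Lyz2 and Aif1 averaged higher at 48 h, and Clec4f, C1qa, C1qb, C1qc and Tyrobp lower. Of the 10 such markers tested, 1 was called, Cd14 (0.31 ± 0.049, adjusted p = 6.14e-05), a lipopolysaccharide co-receptor, and the macrophage markers Adgre1, Cd163 and Ptprc were too dim to test. That is 10% of those tested, beside 11.4% of all tested genes, and so no result about these markers. Of 8 cholangiocyte markers the sum was 12937 to 14501 at 48 h and 10972 to 11551 at 24 h under DINP, and 13992 to 16743 at 48 h and 10927 to 12794 at 24 h in vehicle. Epcam, which averaged 11040.1 units at 48 h and 8717 at 24 h under DINP, made up most of this shift. Epcam (0.34 ± 0.074, adjusted p = 0.00299) and Krt19 were called of 5 tested. Of the others, Slc4a2 averaged higher at 48 h under DINP, and Sctr and Aqp1 lower. Stellate, endothelial and lymphoid or erythroid markers had 0 calls of 7, 4 and 6 tested. Beside the 11.4% of all tested genes, lists this short with 0 calls are no result about these cells. No marker is listed at 0. What these shifts contribute to the results was not tested, and in RNA from whole wells, fewer cells of a type and less RNA per cell cannot be told apart.

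Between 24 and 48 h under 100 mM DINP, 669 genes rose (6.31% of those tested) and 541 fell (5.1%), together 1210 genes or 11.4%. Most changes were small: 13 genes rose at least 2-fold (0.123%) and 19 fell at least 2-fold (0.179%). All 5 arrays at 48 h lay above all 5 at 24 h in 706 genes (6.66%) and below them in 543 (5.12%), and 906 of these genes were among the called ones. The median difference over all 10604 genes was 0.0057. Genes that rose made up 55.3% of the calls with the deposited scaling and 67.5% with every array's median set equal, where 554 genes were higher and 267 lower. Counted over all called probe sets, those without a gene symbol included, 48.25% rose with the deposited scaling. Which direction leads thus depends on the unit counted.

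Serpina6, which encodes corticosteroid-binding globulin, had the largest fall among called genes that were bright at both times and whose arrays did not overlap. For genes ranked in this way, the lack of overlap follows from the choice. It gave 654, 591, 774, 687 and 489 units on the 5 arrays at 48 h, against 2012, 2897, 3112, 3271 and 3177 units at 24 h. All arrays at 48 h lay below all arrays at 24 h, and the gene was 4.43-fold lower (log2 -2.15 ± 0.14, adjusted p = 1.33e-12, limma). Il1r2, a decoy receptor that binds interleukin-1 without signalling, gave 629, 814, 629, 751 and 489 units at 48 h, against 1569, 2406, 3205, 3087 and 2459 units at 24 h. The groups did not overlap, and the difference was -1.89 ± 0.20, adjusted p = 3.21e-08. Cyp2c13, a P450 of male rat liver, gave 1868, 1483, 2151, 1838 and 2065 units at 48 h, against 4721, 6941, 7238, 8688 and 6798 units at 24 h. The lowest array at 24 h was far above the highest at 48 h, and the difference was -1.85 ± 0.14, adjusted p = 3.37e-11.

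Serpina3c, of the serine protease inhibitor family, differed by -1.81 ± 0.14, adjusted p = 1.15e-10, and C9, the pore-forming complement component, by -1.40 ± 0.086, adjusted p = 4.88e-13. Other falls were found for Serpina3l (-1.19), the caffeine-metabolising Cyp1a2 (-1.19), the iron hormone hepcidin (Hamp, -1.15) and the interferon-induced GTPase Mx2 (-1.14). Rup2 (-1.14), the calcium-binding protein S100a6 (-1.12), serum amyloid Saa3 (-1.04), carbonic anhydrase Car3 (-1.01) and the protease inhibitor A2m (-1.002) also fell, all of these with adjusted p-values from 7.42e-11 to 0.000147. Gstp3, a glutathione transferase, fell (-1.24 ± 0.34, adjusted p = 0.0179), and without array 4 at 48 h this was -0.955 with an adjusted p of 0.0861. Members of the serpin, P450, carboxylesterase and glutathione transferase families are close in sequence, so which family member a probe set reads is uncertain.

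Acta1, skeletal muscle alpha-actin, had the largest rise among called genes bright at both times and without overlap. It gave 8104, 7878, 6080.4, 6065 and 4606 units at 48 h, against 1308, 1435, 1887, 1826 and 1878 units at 24 h. The groups stood well apart although the arrays at 48 h were spread widely, and Acta1 was 3.86-fold higher (log2 1.95 ± 0.19, adjusted p = 6.42e-09, limma). Scd2, a stearoyl-CoA desaturase that makes monounsaturated fatty acids, gave 1770.5, 1677, 1557, 1652 and 1777 units at 48 h, against 648, 664, 549, 536 and 489 units at 24 h. All values at 48 h lay far above those at 24 h, and the difference was 1.53 ± 0.13, adjusted p = 2.58e-10. Ces1d, a carboxylesterase that hydrolyses esters, gave 26878, 28022, 26418, 28431 and 31091 units at 48 h, against 13516, 11172, 10828, 10204 and 12449.8 units at 24 h. The groups did not overlap (1.28 ± 0.092, adjusted p = 1.87e-11).

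Further rises came from Ttc39a (1.29), Tsx (1.22), the mitochondrial protein gene Ndufa4l2 (1.16), the glutathione transferase Gstt3 (1.00), the lactate dehydrogenase subunit Ldhb (0.96) and the protease inhibitor Serpine2 (0.94). Alas1, the first enzyme of heme synthesis (0.93), the glycerol channel Aqp7 (0.91), the fatty acid transporter Cd36 (0.91) and Klhl13 (0.89) rose as well, all of these with adjusted p-values from 2.29e-11 to 0.000597. Map1b, a microtubule-binding protein, was higher (1.43 ± 0.35, adjusted p = 0.00786), with its values at 24 h ranging from 83.7 to 553 units. Klrg1, a lymphocyte receptor, was higher by 1.10 ± 0.25, adjusted p = 0.00395. The plot of the 6 largest rises and falls among called genes bright at both times and without overlap shows each array.

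**Figure D1:**
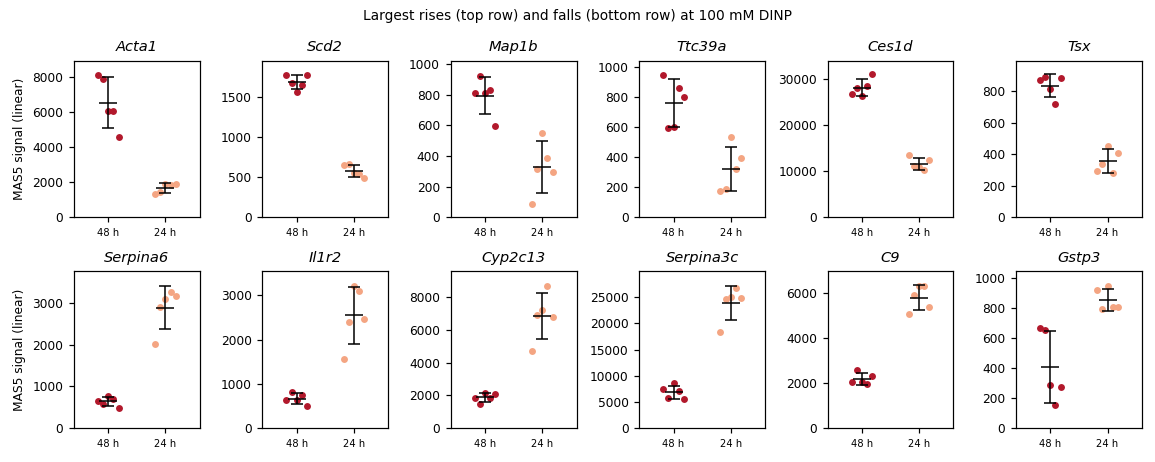
Signal (linear MAS5 units, axis from 0) of 12 genes at 100 mM DINP, all called, bright at both times and without overlap between them: the 6 that rose most and the 6 that fell most, for the 5 arrays at 48 h (left) and the 5 at 24 h (right). Points are single arrays and bars the mean ± SD; that the groups stand apart follows from how the genes were chosen.

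Among called genes with 1 group mean below the dimmest tested level, the 4 with the largest differences are given first. Their differences depend in part on the 16 units added to each signal (for Tgfb2, 2.08 with 1 unit added and 1.71 with 64). Tgfb2, a transforming growth factor, gave 686, 858, 684, 806 and 628 units at 48 h, against 96.6, 118, 365, 329 and 108 units at 24 h. Every array at 48 h lay above every array at 24 h (1.97 ± 0.44, adjusted p = 0.0036). Nfkbid, an inhibitor of NF-κB, was called (1.66 ± 0.43, adjusted p = 0.0112) although its arrays overlapped, and Mdn1 (-1.56 ± 0.36, adjusted p = 0.00426) and Cnnm1 (-1.51 ± 0.41, adjusted p = 0.0167) were lower. Cnnm1 lost its call without the first array at 48 h (adjusted p = 0.053) or the fifth (adjusted p = 0.0533). Rxra, the partner of PPARα and other nuclear receptors, was likewise dim at 24 h and gave 583, 613, 460.3, 581 and 553 units at 48 h, against 154, 205, 157, 227 and 303 units at 24 h. All values at 48 h were higher (1.38 ± 0.32, adjusted p = 0.00522).

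Acute phase and complement genes mostly fell where they were called. Of 26 tested members 11 fell and 1 rose, and the median difference was -0.27, beside 0.0057 over all genes. Hamp gave 1427, 1992, 1575, 1475 and 922 units at 48 h, against 2414, 3208, 4209, 3755 and 2728 units at 24 h, and no array at 48 h reached the lowest at 24 h. The copper carrier ceruloplasmin (Cp) differed by -0.70 ± 0.10, adjusted p = 5.33e-06. Complement C6 (-0.58) and C3 (-0.40), the fibrinogen chains Fgb (-0.41) and Fga (-0.26), Serpina3n (-0.49) and Itih4 (-0.34) fell less. The member that rose was Crp, C-reactive protein (0.73 ± 0.13, adjusted p = 0.000289). Not called were haptoglobin (Hp), orosomucoid (Orm1), lipocalin (Lcn2) and the acute phase regulators Stat3 and Socs3. Leaving out any 1 array kept the counts at 11 to 12 lower and 1 higher. Among 32 secreted liver proteins 7 fell and 1 rose (Apoa5, 0.23 ± 0.06, adjusted p = 0.0106), with a median of 0.05, or -0.012 after quantile normalisation. In this list 0 rose with median centring, and 3 with array weights or just the arrays of the comparison. The falls numbered 5 with median centring, 9 with the median over probe sets and 10 after quantile normalisation. Serpina6 and Serpina3c fell furthest, then apolipoprotein Apoc1 (-0.49 ± 0.062, adjusted p = 1.59e-06) and vitronectin (Vtn, -0.45 ± 0.057, adjusted p = 1.51e-06).

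Interferon-stimulated genes, which encode antiviral proteins, gave 9 falls and 1 rise among 21 tested members, with a median of -0.26. Mx2 gave 528, 500.1, 672, 512 and 644 units at 48 h, against 1216, 1709, 1143, 1257 and 1095 units at 24 h. All values at 48 h lay below those at 24 h. Isg15, a ubiquitin-like modifier, gave 2576, 2105, 2102, 2298 and 2221 units at 48 h, against 3751, 5620.0, 4503, 4614 and 3638 units at 24 h, also without overlap (-0.95 ± 0.13, adjusted p = 9.54e-06). The other falls were Ifitm3 (-0.84 ± 0.10, adjusted p = 1.89e-07), which blocks viral entry, the deubiquitinase Usp18 (-0.76) and the transcription factors Irf7 (-0.62) and Irf9 (-0.59). The chemokine Cxcl11 (-0.62), the RNA-sensing Oas1a (-0.62) and the antiviral Rsad2 (-0.60) completed them. The rise was Psmb10, an immunoproteasome subunit (0.45); without array 2 at 24 h there were 0 rises. In the plot of both lists the vehicle values stand beside those of DINP.

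**Figure D2:**
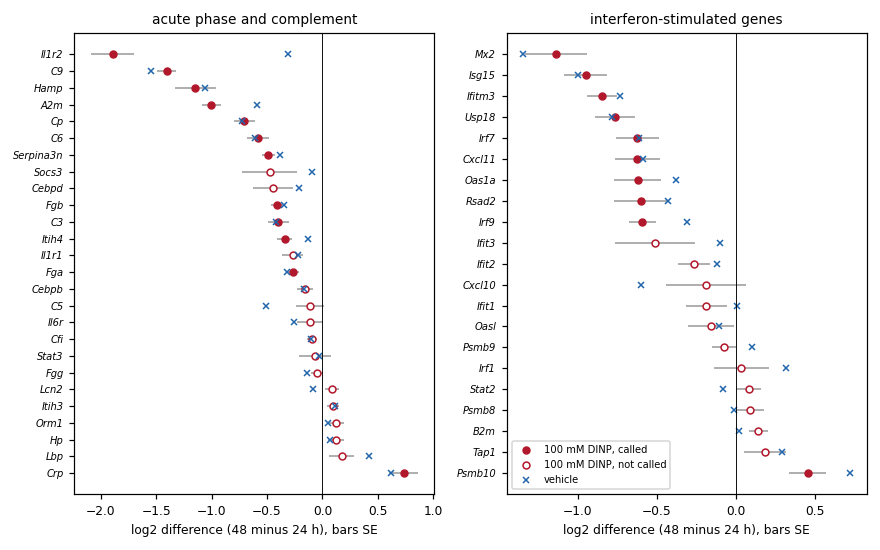
Log2 difference (48 minus 24 h) of every tested member of the acute phase and complement list (left) and of the interferon-stimulated list (right), genes down the page. Red points are 100 mM DINP with SE bars, filled where called, and blue crosses are vehicle; 11 and 9 filled points lie below 0 and 1 in each list lies above it.

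The promoters of Ifitm3 and Rsad2 are shown because both fell and both hold the interferon element, given here as GAAA, any 2 bases and GAAA again, searched on both strands. The sequences are RefSeq promoters of the rat genome build GRCr8, the 250 bases before the gene start on the strand of the gene, 5′ to 3′, with the match in capitals. Ifitm3 lies at chr1:205541759-205542008 on the minus strand and Rsad2 at chr6:48788121-48788370 on the minus strand.
Ifitm3: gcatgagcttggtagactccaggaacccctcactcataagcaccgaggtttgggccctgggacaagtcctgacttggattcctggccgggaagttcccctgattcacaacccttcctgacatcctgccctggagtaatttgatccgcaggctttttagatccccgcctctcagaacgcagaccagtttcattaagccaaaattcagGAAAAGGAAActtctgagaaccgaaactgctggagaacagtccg
Rsad2: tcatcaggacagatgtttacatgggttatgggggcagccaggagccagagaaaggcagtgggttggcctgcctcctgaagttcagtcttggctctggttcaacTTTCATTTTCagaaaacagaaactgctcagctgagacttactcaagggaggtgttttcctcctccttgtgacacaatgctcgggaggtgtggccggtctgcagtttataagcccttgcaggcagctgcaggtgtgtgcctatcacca
The match starts 44 bases before the gene start in Ifitm3, on the gene's own strand, and 147 bases before it in Rsad2, on the opposite strand. Of 33469 promoters of that length 1140 (3.41%) held it. The element was found in 4 of the 6 fallen interferon-stimulated genes with a promoter in the table (Irf7, Oas1a, Rsad2 and Ifitm3) and in 5 of the 10 other tested members with one. A match describes only the letters of the window.

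Among the called genes of lipid synthesis, most rose. Fatty acid and triglyceride synthesis had 25 tested genes, of which 8 rose and 0 fell (median 0.08). Beside Scd2 these included the desaturases Fads1 (0.72 ± 0.13, adjusted p = 0.00022) and Fads2 (0.69), the synthase Fasn (0.39) and the acyltransferase Dgat1 (0.31). Leaving out the first array at 48 h or the fifth at 24 h left 5 rises, as did the median over probe sets, which gave a list median of 0.043. Among 20 genes of cholesterol synthesis and uptake 9 rose and 1 fell (median 0.22). The largest rises were Mvd (0.56 ± 0.10, adjusted p = 0.000262), Dhcr7 (0.52 ± 0.08, adjusted p = 3.27e-05), Msmo1 (0.48) and Fdps (0.44), and the fall was Tm7sf2 (-0.38), with 0 falls under median centring. Dhcr7, the last reductase of cholesterol synthesis, gave 17484, 16343, 15628, 17225 and 17900.5 units at 48 h, against 13733, 11988, 11711, 9810.2 and 11934 units at 24 h, without overlap.

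Bile acid genes gave 6 rises and 1 fall among 19 tested (median 0.26, but 0.099 without array 3 at 24 h and 0.171 without array 5 at 48 h). Cyp8b1, the sterol 12-hydroxylase, gave 24898, 25598, 26046, 28292 and 24580.3 units at 48 h, against 16849.6, 16224, 15984, 17527 and 17342 units at 24 h. The groups did not overlap (0.62 ± 0.08, adjusted p = 1.93e-06). Slc27a5, which activates bile acids and fatty acids, was higher by 0.79 ± 0.11, adjusted p = 7.16e-06, and the exporters Abcc3 (0.61) and Abcb11 (-0.23) changed in opposite directions. Cyp7a1, whose product limits the rate at which bile acids are made, gave 1211, 815, 1090.0, 1137 and 1423 units at 48 h, against 921, 794, 646, 738 and 619.9 units at 24 h, with 1 array at 48 h inside the range of 24 h. Its call (0.59 ± 0.17, adjusted p = 0.0274) was lost without array 1, 4 or 5 at 48 h or array 3 or 5 at 24 h, with adjusted p-values from 0.0586 to 0.0783.

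Fatty acid uptake and binding gave 5 rises and 1 fall among 19 tested (median 0.11), with Cd36, Slc27a5, Fabp2 (0.67), Fabp1 (0.46) and Slc27a2 (0.40) higher and Fabp5 (-0.29) lower. There were 0 falls without array 3 or 4 at 24 h or with median centring, and the median over probe sets gave a list median of 0.175. Mitochondrial beta-oxidation gave 6 rises, or 10 when the fit held just the arrays of the comparison, and 1 fall of 23 (median 0.14, or 0.059 with the median over probe sets). There were 4 rises with median centring, quantile normalisation or the median over probe sets, and without the filter or the variance trend. With 1 array left out the rises numbered 4 to 6, and median centring gave 0 falls. Decr1 rose (0.36 ± 0.045, adjusted p = 1.68e-06), and the carnitine carrier Slc22a5 fell (-0.37 ± 0.10, adjusted p = 0.0175), a call lost without the second array at 48 h (adjusted p = 0.0523) or at 24 h (0.062). Acaa2, the last thiolase of mitochondrial beta-oxidation, was higher by 0.45 ± 0.061, adjusted p = 5.7e-06 in its brightest probe set. Its probe sets were called in opposite directions and their median gave -0.061. Peroxisomal beta-oxidation gave 5 rises, or 3 with median centring, and 2 falls of 18 (median 0.013). It had 1 fall with median centring, without the filter or the variance trend, and without array 1, 2, 3 or 5 at 48 h or array 2, 4 or 5 at 24 h. Ehhadh, the bifunctional enzyme, was higher by 0.44 ± 0.10, adjusted p = 0.00516. Crot, which moves chain-shortened acyl groups out of peroxisomes, differed by -0.53 ± 0.066, adjusted p = 1.23e-06. Cyp4a1, a fatty acid omega-hydroxylase and classical PPARα target, was higher by 0.59 ± 0.11, adjusted p = 0.000584. Not called were the PPARα targets Acot1 (0.77 ± 0.35, adjusted p = 0.176), Pdk4 (-0.30 ± 0.11, adjusted p = 0.0968) and Angptl4 (0.05 ± 0.085, adjusted p = 0.774) and the secreted hormone Fgf21 (-0.53 ± 0.20, adjusted p = 0.105). With just the arrays of the comparison in the fit, Acot1 (adjusted p = 0.00477), Pdk4 (0.00215) and Fgf21 (0.00409) were called. Acot1 was also called with 64 units added (0.0424), and Fgf21 with array weights (0.0384).

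Lipid droplet and lipolysis genes gave 4 rises and 2 falls of 18 (median 0.18, but 0.075 without array 2 at 48 h and 0.113 without array 2 at 24 h), with the triglyceride lipase Lipc (-0.63 ± 0.061, adjusted p = 9.02e-09) and the lipolysis inhibitor G0s2 (-0.58 ± 0.092, adjusted p = 4.79e-05) lower. In peroxisome biogenesis 3 of 15 rose, Pxmp2 (0.39 ± 0.061, adjusted p = 3.64e-05) most, and Pex16 (0.27) lost its call without array 1, 3 or 4 at 48 h or array 1, 2 or 5 at 24 h (adjusted p-values up to 0.0766). Pex16 was also not called with median centring (0.0583) or in the median over its probe sets (log2 0.124, adjusted p = 0.414). Ketone body genes gave 1 rise (Bdh2, 0.58) and 1 fall (the monocarboxylate carrier Slc16a1, -0.51) of 7.

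Genes of NRF2 and glutathione, which detoxify electrophiles, gave 11 rises and 1 fall among 28 tested (median 0.16). Gstt3 gave 13366, 12798, 13236, 14068 and 12743 units at 48 h, against 8102, 6604, 5580.3, 6044 and 7044 units at 24 h. All values at 48 h lay above those at 24 h (1.00 ± 0.10, adjusted p = 6.42e-09). The glutathione transferases Gsta3 (0.68 ± 0.065, adjusted p = 6.37e-09) and Gsta4 (0.54), the peroxidase Gpx2 (0.67) and the aldehyde reductase Akr7a3 (0.66) also rose. The fall was Slc7a11, the cystine importer (-0.70 ± 0.11, adjusted p = 3.72e-05). The drug metabolism list, named for the receptors CAR and PXR, gave 4 rises and 5 falls of 19 (median 0.031). It includes Cyp2c13, the P450 of male rat liver described above, and which members these receptors regulate was not tested. Cyp2c13, Cyp2c7 (-0.92 ± 0.12, adjusted p = 3.72e-06), Cyp2c11 (-0.64 ± 0.13, adjusted p = 0.00115), Cyp2c23 (-0.56) and Cyp3a9 (-0.53) fell, and Alas1, Ces2c, Sult2a6 (0.71) and Cyp3a23-3a1 (0.31) rose. Cyp1a2, the fall of the aryl hydrocarbon receptor list (1 of 4 tested), gave 6516, 5394, 5007, 5819.9 and 5751 units at 48 h, against 13353, 13087, 13047, 11955 and 13365 units at 24 h. The 2 groups were far apart, and Cyp1a1, the other textbook target, was not called (0.24 ± 0.11, adjusted p = 0.195), though it was with just the arrays of the comparison in the fit (adjusted p = 0.00401).

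Cytoskeletal and contractile targets of YAP and SRF, factors that read cell shape and actin, gave 7 rises and 1 fall of 23 (median 0.16). Acta1, Fhl2 (0.61 ± 0.17, adjusted p = 0.0169), Tagln2 (0.55), Ccn2 (0.36 ± 0.10, adjusted p = 0.0135) and Srf (0.36) rose, and Amotl2 (-0.39) fell. Leaving out the first array at 48 h or the second at 24 h left 3 of the 7 rises, Fhl2 and Ccn2 no longer called (adjusted p-values from 0.0551 to 0.072), and Ccn2 also lost its call without the second array at 48 h (0.0525). With each gene read by the median of its probe sets there were 6 rises and a list median of 0.003. The Acta1 promoter is printed because Acta1 led the rises as ranked above and holds a CArG box, the SRF element, which is in 501 of 33469 promoters (1.5%). It lies at chr19:68784195-68784444 on the minus strand of GRCr8, the box in capitals and starting 94 bases before the gene start.
Acta1: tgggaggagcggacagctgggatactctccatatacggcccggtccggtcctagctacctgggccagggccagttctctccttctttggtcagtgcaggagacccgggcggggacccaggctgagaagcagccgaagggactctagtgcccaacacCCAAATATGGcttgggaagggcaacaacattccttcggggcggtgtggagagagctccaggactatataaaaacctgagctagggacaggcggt

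Cytokeratins, S100 and annexins gave 6 rises and 1 fall of 19 (median 0.2, or 0.132 after quantile normalisation). S100a11 (0.57 ± 0.087, adjusted p = 2.9e-05), Anxa3 (0.44), Krt8 (0.22) and Krt18 (0.20) rose and S100a6 fell. Without the first array at 48 h or the second at 24 h, 3 rises were called, as with median centring. Krt19, a keratin of bile duct cells, was dim and gave 381, 321, 408, 455 and 353 units at 48 h, against 178, 261, 184, 220.2 and 154 units at 24 h. Its groups did not overlap (0.90 ± 0.26, adjusted p = 0.0257). The call was lost without array 1 or 4 at 48 h or array 1, 3 or 5 at 24 h (adjusted p-values up to 0.0734).

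Amino acid catabolism and urea cycle gave 7 rises and 2 falls of 30 (median 0.085), and 4 rises without array 4 at 48 h or at 24 h or with median centring. Leaving out any 1 array other than array 3 at 24 h left 1 fall. The transaminases Gpt2 (0.57 ± 0.079, adjusted p = 6.37e-06) and Got1 (0.48) rose and the cystathionine lyase Cth (-0.53 ± 0.082, adjusted p = 3.33e-05) fell. In glucose and glycogen metabolism 3 of 20 rose (5 with array weights or just the arrays of the comparison), the gluconeogenic Pck1 (0.61 ± 0.13, adjusted p = 0.00195) most. The calls were 15% of this list, beside 11.4% of all tested genes. The unfolded protein and ATF4 list gave 2 rises and 5 falls of 30 (median -0.13), Edem1 (-0.45 ± 0.059, adjusted p = 2.39e-06) among the falls, with 3 falls without the second array at 24 h, 1 with median centring and 8 with array weights or just the arrays of the comparison, and 1 rise without array 1, 2 or 3 at 48 h or array 5 at 24 h. Mthfd2 (-0.59 ± 0.17, adjusted p = 0.0238) lost its call without array 4 at 48 h or array 2, 4 or 5 at 24 h (adjusted p-values up to 0.0849). The clock list gave 4 falls, Rora (-0.76 ± 0.12, adjusted p = 5.65e-05), Npas2 (-0.67), Clock (-0.61) and Bmal1 (-0.54). It gave 1 rise, the repressor Bhlhe41 (0.88 ± 0.25, adjusted p = 0.0221), among 16 tested (2 falls with the median over probe sets). Rora was not called in the median over its probe sets (-0.136), and Bhlhe41 lost its call without array 2 at 48 h or array 2 or 4 at 24 h (adjusted p-values up to 0.0759). Iron and metal handling gave 2 rises and 3 falls of 17 (5 falls with array weights), the fall of Hamp leading and the exporter Slc40a1 (0.36) rising. There was 1 rise without array 3 or 4 at 48 h or array 2, 3 or 5 at 24 h.

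Respiratory chain genes gave 4 rises and 1 fall of 30, Ndufb8 (0.45 ± 0.12, adjusted p = 0.0145) most. There was 1 rise with median centring, without the filter or without the variance trend, and there were 7 with array weights and 0 to 2 without array 1, 2 or 4 at 48 h or array 1, 2, 4 or 5 at 24 h. Ndufb8 lost its call without array 4 at 48 h or array 2 at 24 h (adjusted p-values up to 0.0707). Of cytosolic ribosomal proteins 0 of 17 were called (2 lower after quantile normalisation). Proteasome genes gave 3 rises of 24 (1 with median centring, without the filter or without the variance trend). Psmb5 (0.25 ± 0.078, adjusted p = 0.0357) lost its call without array 1, 2 or 4 at 48 h or array 1, 2 or 5 at 24 h (adjusted p-values up to 0.113). Of the cell cycle list 2 of 23 rose, Cdk4 (0.39 ± 0.11, adjusted p = 0.0235) and Pcna (0.17 ± 0.05, adjusted p = 0.0295). Pcna lost its call without array 1, 2, 4 or 5 at 48 h or array 1, 2 or 5 at 24 h (adjusted p-values up to 0.0889). Cdk4 lost it without array 4 at 48 h or array 1, 2 or 5 at 24 h (up to 0.0771). The hepatocyte factor Hnf4a fell (-0.25 ± 0.063, adjusted p = 0.00907), Cebpa rose (0.30 ± 0.089, adjusted p = 0.0252) and Onecut2 fell (-0.54 ± 0.15, adjusted p = 0.0161, but 0.0533 without the fifth array at 48 h); with Rxra, 2 of 21 transcription factors rose and 2 fell. With the median over probe sets 1 rose and 0 fell, and Onecut2 was -0.394 with an adjusted p of 0.0872. There was 1 rise without array 1 or 2 at 48 h or array 2, 3 or 5 at 24 h. The p53 and damage list gave 1 rise and 2 falls of 14, with Gadd45a (-0.53 ± 0.08, adjusted p = 2.86e-05) lower. It gave 0 rises with median centring, without the filter or the variance trend, and without array 1, 2, 4 or 5 at 48 h or array 1, 2 or 3 at 24 h. The heat shock list gave 1 rise of 13 (Hspb1, 0.56 ± 0.12, adjusted p = 0.00313), but 3 with array weights or without array 3 at 48 h or array 4 at 24 h, and 5 with just the arrays of the comparison. The matrix list gave 2 rises and 2 falls of 24, with fibronectin (Fn1, -0.38 ± 0.089, adjusted p = 0.00541) lower, and 1 rise without array 4 at 48 h or 1 fall without array 2 at 24 h. In both directions together, 8.7% of the cell cycle list, 7.69% of heat shock and 12.5% of proteasome genes were called, beside 11.4% of all tested genes. The share was 16.7% in the matrix list and in the respiratory chain list, and 19% among transcription factors. It was 15% in glucose and glycogen metabolism, 20% in peroxisome biogenesis and 21.4% in the p53 and damage list. In the unfolded protein and ATF4 list it was 23.3%, and in iron and metal handling 29.4%. Counts near the share of all genes are no result about the list. The plot of calls by list sets each list beside the shares of all tested genes.

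**Figure D3:**
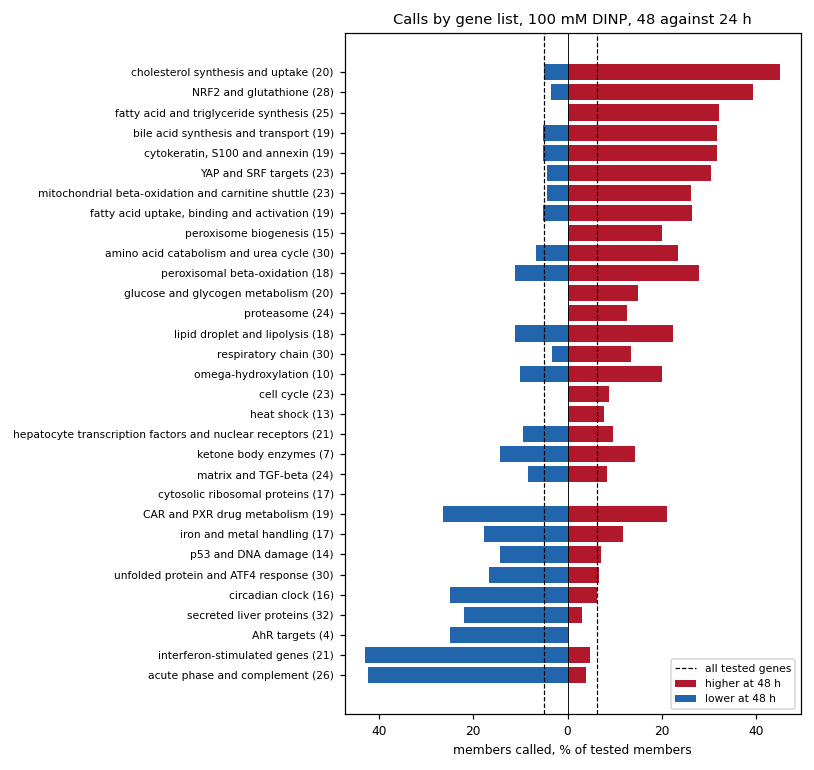
Share of tested members of each gene list other than the cell type markers called higher (red, to the right) and lower (blue, to the left) at 48 against 24 h under 100 mM DINP, in percent, with the number tested in brackets. Dashed lines are the shares over all tested genes, 6.31% higher and 5.1% lower; cholesterol synthesis and NRF2 stand furthest right and acute phase and interferon genes furthest left.

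The vehicle cells changed over the same hours too: 1006 genes rose (9.49%) and 840 fell (7.92%) at 48 against 24 h, together 17.4% of those tested. Of the 1210 genes called at 100 mM, 822 were also called in vehicle in the same direction, which is 67.9% of the calls at 100 mM and 44.5% of the 1846 calls in vehicle, and 5 were called in opposite directions. The remaining 383 were not called in vehicle, which alone does not show that they changed less there. Serpina6 differed by -2.64 in vehicle, Cyp2c13 by -2.29, C9 by -1.55, Acta1 by 1.72 and Scd2 by 1.68. By list, acute phase and complement genes gave 2 rises and 10 falls in vehicle (median -0.22), interferon-stimulated genes 1 rise and 7 falls (-0.12), NRF2 and glutathione genes 11 rises and 1 fall (0.14) and cholesterol genes 11 rises and 1 fall (0.25). YAP and SRF targets gave 7 rises and 0 falls in vehicle (0.28, beside 0.16 under DINP). Cytokeratins, S100 and annexins gave 7 and 0 (0.22, beside 0.20). Fatty acid and triglyceride synthesis gave 10 rises and 1 fall in vehicle (0.20, beside 0.08), and lipid droplet and lipolysis genes 7 and 1 (0.28, beside 0.18). Bile acid genes gave 4 rises and 1 fall in vehicle with a median of -0.03, and 0 members had a called difference between the treatments. Peroxisomal beta-oxidation gave 5 rises and 4 falls in vehicle (median -0.03), mitochondrial beta-oxidation 6 and 1 (0.05) and omega-hydroxylation 3 and 0 (0.17). In each of these lists, too, 0 members had a called difference. Fatty acid uptake and binding gave 5 rises and 4 falls in vehicle (-0.02), and 1 member, Fabp1, had a called difference. Over all 10604 genes the time changes of the 2 treatments had a Pearson correlation of 0.547, a description across genes, which are not independent.

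The change over time itself differed between 100 mM DINP and vehicle in 12 of 10604 genes (0.113%), 9 with a more positive change under DINP (0.0849%) and 3 with a more negative one (0.0283%). At an unadjusted limma p under 0.05 there were 731 genes. A missing call does not show that a gene changed alike in both treatments. Of the 12, 6 kept the call in every alternative run: Cyp3a2, Afm, Fabp1, Apon, Il1r2 and S100a6. Cyp3a2, a drug-metabolising P450, gave 5315, 3698, 6164, 5059 and 6260.0 units at 48 h and 4038, 5889.6, 5599, 6099.6 and 4241 at 24 h under 100 mM DINP. In vehicle it gave 2491, 1976, 2149.8, 2105 and 1602 at 48 h and 4766, 6209, 7415, 5872 and 5239 at 24 h. Under DINP the 2 times overlapped (0.03 ± 0.14, adjusted p = 0.936), while in vehicle all arrays at 48 h lay below those at 24 h (log2 -1.51). The difference between treatments was 1.54 ± 0.20, adjusted p = 8.66e-05. Afm, afamin, a plasma vitamin E-binding protein, gave 7738, 7023, 8427, 8507 and 7607 units at 48 h and 9724, 10595, 12218, 11631 and 10579 at 24 h under DINP. In vehicle it gave 3794, 4349.9, 4370.0, 4596 and 4105 at 48 h and 10722, 10266, 11172, 10777 and 10470.3 at 24 h. Afm fell over time in both treatments, with log2 differences of -0.48 under DINP and -1.33 in vehicle, which differed by 0.85 ± 0.095, adjusted p = 5.42e-06.

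Fabp1, the liver fatty acid-binding protein and a classical PPARα target, gave 24948, 24527, 27739, 26319 and 28542 units at 48 h and 19277, 20414, 18265, 20353 and 17686 at 24 h under DINP. In vehicle it gave 7415, 6774, 6909, 6604 and 5934 at 48 h and 7396, 8608, 8953, 7165 and 7554 at 24 h. It rose under DINP (0.46) and fell in vehicle (-0.24), with a difference of 0.70 ± 0.11, adjusted p = 0.00311, and all arrays under DINP lay above all vehicle arrays. Apon, an apolipoprotein, rose by 0.26 under DINP and fell in vehicle (-0.24), a difference of 0.50 ± 0.087, adjusted p = 0.00831. Il1r2 gave 1763, 3601, 2762, 2946 and 4073 units at 48 h and 4353, 3168, 3723, 4373 and 2733 at 24 h in vehicle, where the times overlapped. The difference between treatments was -1.59 ± 0.28, adjusted p = 0.00831. S100a6 gave 10274, 9929.8, 8532, 8098 and 7441 units at 48 h and 14112, 18631, 22232, 21573 and 20022 at 24 h under DINP. In vehicle it gave 15716, 20791, 19177, 16291 and 22193 at 48 h and 22814, 23397, 21750.1, 22560.1 and 17475 at 24 h. Only the 48 h arrays under DINP stood apart from the other 3 groups, and the difference between treatments was -0.91 ± 0.16, adjusted p = 0.00831.

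The other 6 genes kept the call in some alternatives only. Bdh1, the ketone body dehydrogenase, was 0.22 under DINP and -0.58 in vehicle (difference 0.80 ± 0.14, adjusted p = 0.00845), and the median over its probe sets gave an adjusted p of 0.066. Ces2c, a carboxylesterase, rose in both treatments, by 0.86 under DINP and 0.37 in vehicle (difference 0.49 ± 0.089, adjusted p = 0.0117), and without the variance trend its adjusted p was 0.0747. Ly6i, of the Ly6 family of surface proteins, rose by 0.85 under DINP and 0.29 in vehicle (difference 0.56 ± 0.11, adjusted p = 0.0186). It lost the call without array 1 at 48 h or 2 at 24 h under DINP or 3 at 24 h in vehicle (adjusted p-values up to 0.0542). Apoa2, an HDL apolipoprotein, fell in both, with differences of -0.41 under DINP and -0.84 in vehicle (difference 0.44 ± 0.086, adjusted p = 0.0251). Apoa2 lost the call without array 3 or 5 at 48 h or 1, 2 or 5 at 24 h under DINP, or array 2, 3 or 5 at 48 h or 3 at 24 h in vehicle (adjusted p-values from 0.0532 to 0.0906). Defb1, a defensin, was -0.24 under DINP and 0.30 in vehicle (difference -0.54 ± 0.10, adjusted p = 0.0144), and its time change under DINP (adjusted p = 0.0285) lost the call without array 1, 2 or 4 at 48 h or 1, 2 or 3 at 24 h (adjusted p-values up to 0.078). Slc25a15, the mitochondrial ornithine carrier, was 0.34 under DINP and -0.03 in vehicle (difference 0.37 ± 0.071, adjusted p = 0.0186). It lost the call without array 1 or 4 at 48 h or 5 at 24 h under DINP or 2 at 48 h in vehicle (adjusted p-values up to 0.0554), and was named after its values were seen. The plots of the 12 genes and of all genes show them by treatment and time.

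**Figure D4:**
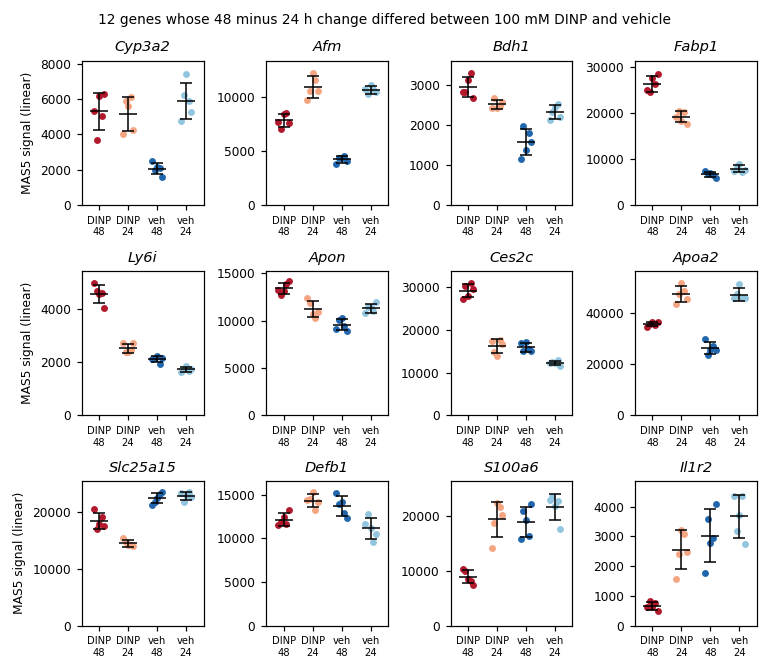
Signal (linear MAS5 units, axis from 0) of the 12 genes whose 48 minus 24 h change differed between 100 mM DINP and vehicle, with 100 mM DINP at 48 and 24 h left of vehicle (veh) at 48 and 24 h. Points are the 5 arrays of a group and bars the mean ± SD; Cyp3a2, Afm, Bdh1 and Apon are lowest in vehicle at 48 h, and Il1r2 and S100a6 lowest under DINP at 48 h.

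**Figure D5:**
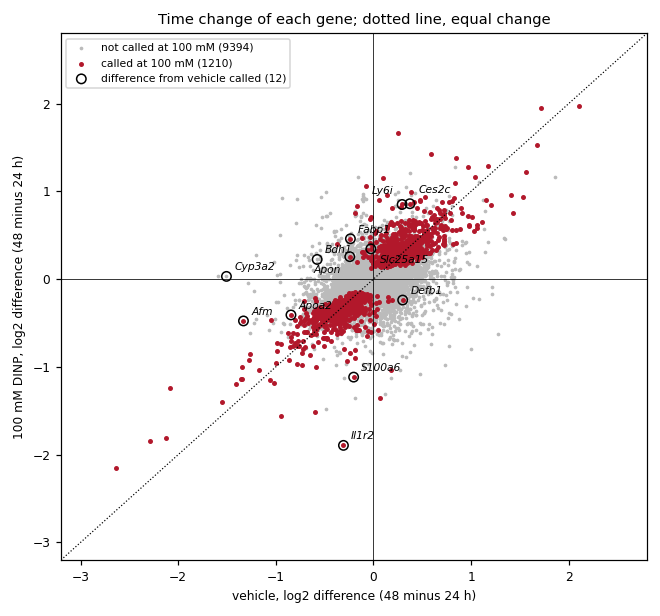
Log2 difference (48 minus 24 h) of every tested gene under 100 mM DINP (vertical) against vehicle (horizontal), with the 1210 genes called at 100 mM in red and the 12 genes with a called difference circled. Of the red points 1168 have the same sign in vehicle, and Cyp3a2 and Il1r2 stand furthest from it among the circled genes.

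The promoters of Fabp1 and Cyp3a2 are given because each holds a match to a nuclear receptor element in the letters given here. Fabp1 (chr4:104749090-104749339, plus strand, GRCr8) holds AGGNCA repeated after 1 base, and Cyp3a2 (chr12:14343858-14344107, minus strand) holds AGTTCA repeated after 3 bases. Both strands were searched, both matches lie on the opposite strand and are in capitals, and each sequence is the 250 bases before the gene start.
Fabp1: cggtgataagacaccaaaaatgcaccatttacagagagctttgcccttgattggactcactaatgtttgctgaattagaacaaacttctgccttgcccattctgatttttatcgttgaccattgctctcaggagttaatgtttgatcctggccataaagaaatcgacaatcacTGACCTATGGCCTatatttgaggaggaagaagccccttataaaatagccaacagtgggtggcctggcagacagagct
Cyp3a2: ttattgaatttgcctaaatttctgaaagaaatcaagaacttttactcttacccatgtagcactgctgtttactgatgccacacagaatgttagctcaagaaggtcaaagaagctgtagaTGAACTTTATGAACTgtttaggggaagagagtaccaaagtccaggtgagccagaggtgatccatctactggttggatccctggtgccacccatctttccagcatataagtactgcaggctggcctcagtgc
The match starts 77 bases before the gene start in Fabp1 and 131 bases before it in Cyp3a2. The first repeat is in 123 of 33469 promoters (0.368%) and the second in 2 (0.00598%). These shares hold only for the letters searched. N in the first repeat stands for any base, while the letters of the second repeat's copies are all fixed. They do not tell how common such receptor elements are. Of the 12 genes 8 have a promoter in the table, and 1 of the 8 holds each repeat. Neither match says whether a factor binds there.

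The change over time did not pass the test of a difference between 100 and 25 mM in any gene: 0 of 10604 were called (0%) by limma, with 449 at an unadjusted p under 0.05 and a smallest adjusted p of 0.684. Of the 1210 genes called at 100 mM, 1191 had the same sign of change at 25 mM. Serpina6 differed by -2.40 at 25 mM, Il1r2 by -2.05, Acta1 by 1.61 and Cyp3a2 by -0.14. A missing call does not show that the doses act alike, and for Il1r2 the difference between the doses was 0.15 ± 0.28, adjusted p = 0.998.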

How the data were processed

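RNA of 30 single-well cultures was hybridised to 1-colour Affymetrix rat arrays. The authors deposited linear MAS5 signal intensities per probe set, scaled per array: the 2% trimmed mean was 1500.65 to 1500.76 on every array. MAS5 is per the submitters' processing notes, and its version is not given in the sources used here.

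Signals were analysed as log2(signal + 16). Probe sets at or above the 40th percentile of mean log2 signal (7.956) were kept: 18625 of 31042, of which 342 have several symbols and 4119 none here. A gene was read by its brightest tested probe set with 1 symbol. Fits used limma 3.58.1 in R 4.3.3 over all 6 groups (24 residual degrees of freedom) with a variance trend and Benjamini-Hochberg adjustment over all tested probe sets, all adjusted p-values being from limma, and the script was tested on simulated data. The number of arrays limits the precision.

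Named genes were the 15 largest rises and falls without overlap between times, up to 4 dim genes, 2 called members of each list, up to 8 differences from vehicle in each direction, and 18 fixed genes. Members of lists beyond these, and Slc25a15, were named after their values were seen. Members and lists were chosen with earlier results of these data known. Alternatives changed the constant, filter, scaling, variance prior, weights, block, probe set rule or samples, or left out 1 array. The list recounts were added after seeing the data.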

Additional observations from a re-analysis of the deposited data

Results flagged for a closer look

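Of 200 groups of 5 arrays examined (100 named genes at 2 times), 14 held an array far from the other 4 (Dixon's ratio above 0.71), where chance gives about 1 in 20; all values here are log2(signal + 16) under 100 mM DINP. At 48 h, Aqp7 was low on array 5 (12.55, against 12.74 to 12.80 on the others), Klhl13 on array 3 (10.64, against 11.18 to 11.36), Mvd on array 5 (11.11, against 11.21 to 11.24) and Hspb1 on array 5 (12.32, against 12.67 to 12.74). Tp53inp1 was high on array 5 (10.58, against 10.42 to 10.46) and Acaa2 on array 4 (16.69, against 16.52 to 16.56). At 24 h, array 1 was low for Klrg1 (7.67, against 8.13 to 8.29), Serpina6 (10.99, against 11.51 to 11.68), Serpina3c (14.17, against 14.59 to 14.71) and Car3 (10.77, against 11.28 to 11.40). Also low at 24 h were Cyp1a2 on array 4 (13.55, against 13.67 to 13.71), Acaa2 on array 3 (16.07, against 16.13 to 16.14), Gpt2 on array 4 (10.69, against 10.86 to 10.93) and Ndufb8 on array 2 (11.75, against 12.14 to 12.27). Array 1 at 24 h and array 5 at 48 h each held 4 of the 14.

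The time change differed between 100 mM DINP and vehicle (log2, DINP minus vehicle, limma) by 1.54 for Cyp3a2, 0.85 for Afm, 0.80 for Bdh1, 0.70 for Fabp1, 0.56 for Ly6i, 0.50 for Apon, 0.49 for Ces2c, 0.44 for Apoa2 and 0.37 for Slc25a15. It differed by -1.59 for Il1r2, -0.91 for S100a6 and -0.54 for Defb1.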

How the results depend on the processing

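Over the 10 left-out arrays, 478 to 689 genes were higher and 362 to 572 lower at 48 h under 100 mM DINP, and in vehicle 755 to 1065 were higher and 654 to 925 lower. With median centring 267 genes were lower at 100 mM, against 541. The difference from vehicle had 9 genes higher and 3 lower; it had 5 lower with a constant of 64, 10 lower with quantile normalisation, 17 higher and 6 lower with array weights, and 6 lower with the median over probe sets. Leaving out 1 of the 20 arrays gave 7 to 14 higher and 3 to 6 lower: 14 higher and 5 lower without the first vehicle array at 48 h, 6 lower without the second vehicle array at 24 h, and 5 lower without the second array at 48 h under DINP or the fourth vehicle array at 48 h. The comparison with 25 mM gave 0 calls in every setting run. Cyp3a2, not called over time at 100 mM, changed sign to -0.002 with array weights and to -0.029 or below without array 1 or 5 at 24 h or array 3 or 5 at 48 h, over a range of -0.053 to 0.154 with 1 array left out. Acaa2 changed sign to -0.061 with the median over probe sets. The causes were not tested. Of the named genes' other values, 1159 kept direction and call with 1 array left out and 75 lost the call; in the other settings these were 1082 and 26. Calls absent over all 6 groups were gained 2 times with 1 array left out and 10 times in the other settings, for Acot1, Pdk4, Fgf21, Cyp1a1, Steap4 and Vim. The difference from vehicle lost its call with median centring for Apoa2, Defb1 and Slc25a15, without the variance trend for these 3 and Ces2c, without the filter for Apoa2, and with the median over probe sets for Slc25a15 and Bdh1. No paired analysis was possible because the labels name no animal, batch or replicate number shared between groups. The array numbers of the labels run in rounds of 6 with 1 array of each group, and with this round as a block, 666 genes were higher and 549 lower over time, and 12 higher and 4 lower against vehicle. Differences of dim genes depend on the constant added and are no bounds.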

Other observations

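Omega-hydroxylation genes, whose enzymes oxidise the tail end of fatty acids, gave 2 rises and 1 fall of 10 tested at 48 against 24 h under 100 mM DINP. Beside Cyp4a1, Cyp2j4 rose (0.44 ± 0.084, adjusted p = 0.000597) and Cyp4f1 fell (-0.29 ± 0.09, adjusted p = 0.0386). The list gave 0 falls with median centring, without the filter or the variance trend, and without array 2, 3 or 5 at 48 h or array 2, 4 or 5 at 24 h. Of the fixed genes not described above, Ccnd1, a cyclin that drives entry into the cell cycle, differed by -0.12 ± 0.13, adjusted p = 0.658. The tryptophan pathway enzyme gene Acmsd differed by -0.24 ± 0.17, adjusted p = 0.426, the metalloreductase Steap4 by -0.39 ± 0.13, adjusted p = 0.0636 and vimentin (Vim) by 0.29 ± 0.11, adjusted p = 0.0913, none of them called in the limma fit over all 6 groups. Steap4 was called with just the arrays of the comparison (adjusted p = 0.014), with array weights (0.0284) and without array 5 at 24 h (0.0362). Vim was called in the first (0.0365) and second (0.0497) of these and without array 3 at 48 h (0.0328).

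Serine protease inhibitors moved in both directions. Serpina6, Serpina3c, Serpina3l, Serpina3n and antithrombin (Serpinc1, -0.19 ± 0.054, adjusted p = 0.022) fell, while Serpine2, which inhibits thrombin and urokinase, rose. These genes were gathered after their values were seen and carry no test as a group.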
